A study of Mus musculus with 15 samples.

Results

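The 10 genes described here encode nuclear receptors of the retinoid and peroxisome proliferator-activated receptor (PPAR) group and their close partners. They were the retinoic acid receptor genes Rara, Rarb and Rarg, the retinoid X receptor genes Rxra and Rxrb, the PPAR genes Ppara, Ppard and Pparg, the liver X receptor gene Nr1h3 and the orphan receptor gene Nr2f2. The genes were chosen by name, with no measured value in the rule, and were 10 of 18193 genes with an array probe set of their own. Each was read from its brightest probe set. Of the 10, 8 were bright enough to be tested, among 12143 genes tested in all.

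Transcripts were measured on 15 Affymetrix mouse arrays of sorted mammary epithelial cells from C57BL/6 females, with 3 arrays for each of 5 populations. Alveolar luminal cells (AL) and alveolar luminal stem/progenitor cells (ALP) were YFP-positive cells of Wap-Cre;R26Y females, the first taken at midgestation and the second from adult virgins. Cre driven by the whey acidic protein (Wap) promoter switches on the R26Y reporter in these animals, so the YFP mark covers cells that once expressed Cre and their descendants. The other populations came from adult virgin wildtype females: a stem cell-enriched basal fraction (MaSC), progenitors of the luminal layer (LP) and its mature cells (ML), all sorted from each of 3 cell suspensions.

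As background, retinoic acid made inside cells from vitamin A binds retinoic acid receptors, and fatty acids and their derivatives bind PPARs. Both kinds of receptor pair with a retinoid X receptor and sit on DNA at repeated short half-sites near their target genes, recruiting corepressors or coactivators according to ligand. In the mammary gland retinoids are known for effects on growth and branching of the epithelium, and PPARs for links to fat handling.

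Sequences upstream of the receptor genes were taken from RefSeq (GRCm38.p6), which listed promoter windows for 10 of 10 genes. The windows numbered 19, each with 250 bases before and 50 after an annotated transcription start. They were searched on both strands for the half-site AGGTCA, for its direct repeats, and for the repeat GTTCACNNNNNGTTCAC, a form of the retinoic acid response element with a spacing of 5. The repeat occurred in 1 of the 19 windows, that of Rarb, and in 0.00609% of all 32851 windows. Rarb is known as a gene that retinoic acid itself switches on through such an element, and the letters searched were of that known form. Its match therefore follows from the choice of letters, and the share of all windows beside it is no test. The half-site occurred in 5 of the 19 windows, against 16.3% of all windows, and AGGTCA repeats spaced by 1, 4 or 5 bases in 0. The windows below show the Rarb repeat, the half-site of the fourth Rara window and the pair of half-sites, 1 on each strand, of the second Rxra window. Capitals mark the matched bases, and a match describes letters only.
Rarb, chr14:16575427-16575726, minus strand: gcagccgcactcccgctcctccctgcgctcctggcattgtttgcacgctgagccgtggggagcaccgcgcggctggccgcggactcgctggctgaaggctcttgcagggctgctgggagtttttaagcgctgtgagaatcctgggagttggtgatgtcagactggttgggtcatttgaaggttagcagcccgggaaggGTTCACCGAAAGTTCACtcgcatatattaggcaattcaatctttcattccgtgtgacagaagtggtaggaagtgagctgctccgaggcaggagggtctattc
Rara, chr11:98964622-98964921, plus strand: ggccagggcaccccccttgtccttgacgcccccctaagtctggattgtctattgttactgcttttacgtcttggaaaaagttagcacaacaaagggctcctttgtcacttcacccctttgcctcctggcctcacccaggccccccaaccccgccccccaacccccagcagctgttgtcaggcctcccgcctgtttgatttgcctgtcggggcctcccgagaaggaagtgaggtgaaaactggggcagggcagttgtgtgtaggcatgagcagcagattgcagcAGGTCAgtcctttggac
Rxra, chr2:27709042-27709341, plus strand: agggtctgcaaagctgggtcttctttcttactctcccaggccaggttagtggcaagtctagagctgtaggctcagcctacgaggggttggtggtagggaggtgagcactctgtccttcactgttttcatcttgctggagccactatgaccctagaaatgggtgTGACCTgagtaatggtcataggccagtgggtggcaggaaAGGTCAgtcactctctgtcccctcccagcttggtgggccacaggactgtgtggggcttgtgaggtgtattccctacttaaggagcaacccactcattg

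Arrays of one population correlated at 0.984 to 0.989 in AL, 0.901 to 0.970 in ALP, 0.943 to 0.973 in MaSC, 0.976 to 0.986 in LP and, in ML, 0.979 to 0.983 over genes, which are not independent replicates. ALP replicate 3 stood apart: its summed macrophage and leukocyte markers were 75495, against 3860 and 5536 in the other ALP arrays, and its endothelial, fibroblast and basal marker sums were also the highest of the ALP arrays. The marker lists of MaSC, LP, ML and AL were high in those populations, with basal marker sums of 107854 to 114032 in MaSC, luminal progenitor sums of 46045 to 50623 in LP, mature luminal sums of 40209 to 43671 in ML and milk protein and alveolar sums of 101248 to 114913 in AL. The luminal progenitor sums did not set LP apart, at 47370 to 50637 in ALP and 41734 to 42618 in AL. Fibroblast markers summed to 40661 to 61759 in LP, against 1804 to 6387 in ML. Basal markers summed to 26495 to 32069 in AL, against 4821 to 7565 in LP and 1864 to 4760 in ML. Their part in the AL differences was not tested. In sorted bulk samples like these, fewer cells of a type and less RNA per cell cannot be told apart. Whether each AL and ALP array stands for a different animal is not given, and p-values that involve them then measure only the spread between arrays, which may be technical.

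All 8 tested receptor genes differed among the 5 populations by limma's moderated F test, with adjusted p between 0.000251 and 0.0350, on an array where 84.7% of all genes tested did. A gene was called in a pairwise comparison at an adjusted p under 0.05, with Benjamini-Hochberg adjustment over all 12143 genes. The 10 comparisons share arrays with each other. Across 80 gene-by-comparison tests of receptor genes 26 were called, where 42.8% of the pairwise tests of all genes were, and 6 of those 26 were called again under every one of 26 alternative settings: Rara in AL against LP, ML, MaSC and ALP, and Rxra in AL against LP and MaSC. Rara and Rxra each had 1 probe set bright enough to test, so settings with other probe sets reread the same values for them. Rarg in AL against LP and in AL against ML was called in 25 of 26, and lost only with its second probe set.

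**Figure D1:**
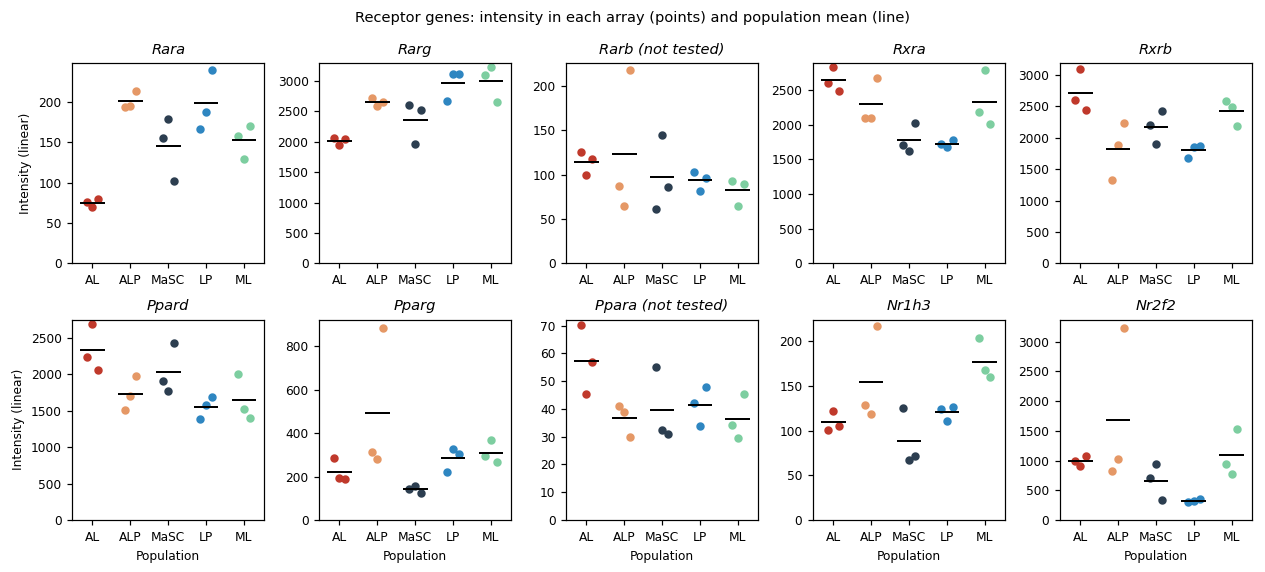
Intensity (linear scale, from 0) of each receptor gene in each of the 15 arrays, by population; points are arrays and lines are population means. The 3 AL points of Rara, between 70.4 and 79.3, lie under all other arrays, the 3 LP points of Nr2f2 lie between 303 and 349, and 1 ALP array is far above the others for Pparg and Nr2f2.

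Rara, which encodes retinoic acid receptor alpha, was lowest in AL. Its intensities were 75.7, 70.4 and 79.3 in AL, 194, 194 and 214 in ALP, 155, 179 and 101 in MaSC arrays, 167, 187 and 239 in LP arrays, and 158, 129 and 170.2 in ML arrays. No AL array reached the level of any array of another population. Rara was 2.67-fold lower in AL relative to ALP (difference on the log2 scale -1.42, SE 0.19, adjusted p = 0.000193), 2.61-fold lower than in LP (-1.38, adjusted p = 0.000195), 2.02-fold lower than in ML (-1.01, adjusted p = 0.000986) and 1.88-fold lower than in MaSC (-0.91, adjusted p = 0.00181). Among the other 4 populations no Rara difference was called, and in the order ALP, LP, ML, MaSC and AL the only neighbours called different were MaSC and AL. The probe set was dim, above the array median in 9 of the 15 arrays and in none of the AL arrays, so the folds rest on an AL signal that may be close to background.

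Rarg, which encodes retinoic acid receptor gamma, had intensities of 2062, 1951 and 2044 in AL, 2716, 2589 and 2649.9 in ALP, 2610, 1955 and 2526 in MaSC arrays, 2669, 3116 and 3113 in LP arrays, and 3093, 3227 and 2647 in ML arrays. The AL arrays lay below all ALP, LP and ML arrays and overlapped the MaSC arrays. Rarg was 1.48-fold lower in AL relative to ML (difference on the log2 scale -0.56, SE 0.12, adjusted p = 0.00170), 1.47-fold lower than in LP (-0.55, adjusted p = 0.00267) and 1.31-fold lower than in ALP (-0.39, adjusted p = 0.0190). It was also lower in MaSC than in ML (-0.35, adjusted p = 0.0233) and LP (-0.34, adjusted p = 0.0389), while no neighbours in the order ML, LP, ALP, MaSC and AL were called different. The ML call was lost without MaSC replicate 2, ML replicate 1 or ML replicate 2 (adjusted p = 0.0704 to 0.0995), and the LP call in 7 of 15 fits that left out 1 array. A second, dim probe set of Rarg read 119 to 149 in AL, 149 to 150.2 in ALP, 144 to 160 in LP and, in ML, 148 to 175, and none of the AL differences was called with it (adjusted p = 0.191 to 0.409). With arrays centred on their medians, which moved the median of all genes by 0.27 in AL against ALP, the Rarg difference there was -0.12 (adjusted p = 0.505). Without AL replicate 2 it was -0.37 (adjusted p = 0.0617).

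Rarb, which encodes retinoic acid receptor beta, was too dim to test, with 1 of 15 arrays above the array median. It read 126, 99.6 and 117 in AL, 87.0, 65.0 and 218 in ALP, 61.1, 144 and 85.9 in MaSC arrays, 104, 81.8 and 95.8 in LP arrays, and 93.2, 64.5 and 89.5 in ML arrays. The single array above its median was ALP replicate 3. Without the brightness filter no Rarb difference was called, with adjusted p between 0.385 and 0.966 in limma. The response element in its promoter window is the one printed above.

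Both retinoid X receptor genes, whose proteins are the shared partners of the group, were higher in AL than in LP. Rxra had intensities of 2598, 2825 and 2487 in AL, 2100.1, 2094 and 2675 in ALP, 1711, 1618 and 2017 in MaSC arrays, 1713, 1681 and 1773 in LP arrays, and 2173, 2784 and 2003 in ML arrays. Every AL array was above every LP and MaSC array, and the AL and ML arrays overlapped. Rxra was 1.53-fold higher in AL relative to LP (difference on the log2 scale 0.61, SE 0.14, adjusted p = 0.00370) and 1.48-fold higher than in MaSC (0.57, adjusted p = 0.00382). It was lower in LP than in ML (-0.42, adjusted p = 0.0256) and in MaSC than in ML (-0.37, adjusted p = 0.0342), and the MaSC and ML arrays overlapped. Those ML calls were lost without ML replicate 2, at -0.28 for LP (adjusted p = 0.111) and -0.23 for MaSC (adjusted p = 0.149). The MaSC call was also lost without MaSC replicate 1 or 2, and the LP call without any one LP array, with adjusted p between 0.0502 and 0.115. In the order AL, ML, ALP, MaSC and LP no neighbours were called different.

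Rxrb had intensities of 2596, 3097 and 2447 in AL, 1332, 1888 and 2228 in ALP, 2199, 1905 and 2415 in MaSC arrays, 1671, 1856 and 1865 in LP arrays, and 2581, 2483 and 2191 in ML arrays. The AL arrays were above all ALP, MaSC and LP arrays, though not above all ML arrays. Rxrb was 1.52-fold higher in AL relative to ALP (difference on the log2 scale 0.60, SE 0.17, adjusted p = 0.0146) and 1.504-fold higher than in LP (0.59, adjusted p = 0.0146). Both calls were lost without AL replicate 2, at 0.50 for ALP (adjusted p = 0.0626) and 0.49 for LP (adjusted p = 0.0616), and the LP call also without LP replicate 1 (0.54, adjusted p = 0.0502). LP was below ML in every array, a difference that missed the threshold (difference on the log2 scale -0.43, adjusted p = 0.0551) and passed without ALP replicate 1 (adjusted p = 0.0142) or ALP replicate 3 (adjusted p = 0.0290). No neighbours in the order AL, ML, MaSC, ALP and LP were called different.

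**Figure D2:**
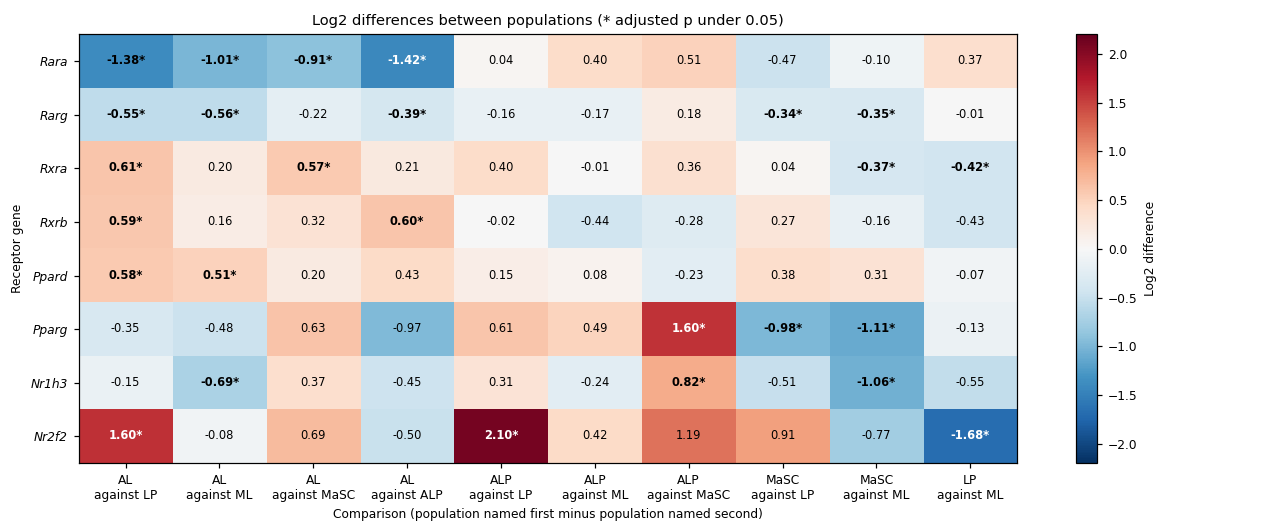
Log2 differences of the 8 tested receptor genes in the 10 comparisons, population named first minus population named second; colour and number give the difference, and an asterisk marks an adjusted p under 0.05. Rara was lower in AL in 4 of 4 comparisons, and the differences furthest from 0 among those called were the 2.10 and -1.68 of Nr2f2.

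Ppard, which encodes a broadly expressed PPAR, had intensities of 2234, 2688 and 2065 in AL, 1510.3, 1705 and 1982 in ALP, 1908, 1777 and 2431 in MaSC arrays, 1382, 1584 and 1696 in LP arrays, and 2006, 1531 and 1403 in ML arrays. All AL arrays were above all ALP, LP and ML arrays, and AL overlapped MaSC. Ppard was 1.49-fold higher in AL relative to LP (difference on the log2 scale 0.58, SE 0.17, adjusted p = 0.0157) and 1.42-fold higher than in ML (0.51, adjusted p = 0.0245). Against ALP the difference of 0.43 missed the threshold (adjusted p = 0.0643), and it passed without ALP replicate 3 (0.53, adjusted p = 0.0405), MaSC replicate 3 (0.43, adjusted p = 0.0473) or ML replicate 1 (0.43, adjusted p = 0.0465). The LP call was lost without AL replicate 2 (0.47, adjusted p = 0.0673) or LP replicate 1 (0.50, adjusted p = 0.0606), and the ML call without AL replicate 2, ML replicate 2 or ML replicate 3 (adjusted p = 0.0753 to 0.0998). No neighbours in the order AL, MaSC, ALP, ML and LP passed.

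Pparg, known as a central regulator of fat cell differentiation, was lowest in MaSC. Its intensities were 284, 196 and 190 in AL, 315, 281 and 885 in ALP, 143, 158 and 126 in MaSC arrays, 222, 325 and 304 in LP arrays, and 293, 366 and 266 in ML arrays. All MaSC arrays lay below every array of the other 4 populations, and the 885 of ALP replicate 3 lay above all others. Pparg was 3.02-fold higher in ALP relative to MaSC (difference on the log2 scale 1.60, SE 0.36, adjusted p = 0.00528), a call kept without ALP replicate 3 at a log2 difference of 1.07 (adjusted p = 0.00321). It was 2.16-fold lower in MaSC relative to ML (-1.11, adjusted p = 0.0189) and 1.98-fold lower than in LP (-0.98, adjusted p = 0.0477). Every MaSC array was below its array median for Pparg, so these folds rest on a dim MaSC signal. The LP call was kept in 3 of 15 fits that left out 1 array, and the ML call was lost without MaSC replicate 3 (-1.02, adjusted p = 0.0585) or ML replicate 2 (-0.98, adjusted p = 0.0644). AL against ALP stood at the threshold (-0.97, adjusted p = 0.05003, not called). It was -0.44 (adjusted p = 0.128) without ALP replicate 3 and passed without AL replicate 1 (-1.15, adjusted p = 0.0475), ALP replicate 1 (-1.19, adjusted p = 0.0352) or ALP replicate 2 (-1.27, adjusted p = 0.0208).

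Without ALP replicate 3, Pparg was also higher in AL than in MaSC (difference on the log2 scale 0.63, adjusted p = 0.0151), which missed the threshold with all arrays (adjusted p = 0.150). With all arrays in the fit, no neighbours in the order ALP, ML, LP, AL and MaSC were called different. Ppara, known for switching on fatty acid oxidation in liver, was too dim to test, with 0 of 15 arrays above the array median. It read 70.1, 45.2 and 56.9 in AL, 41.1, 39.0 and 29.9 in ALP, 55.0, 32.4 and 31.0 in MaSC arrays, 42.3, 33.7 and 47.9 in LP arrays, and 34.2, 29.5 and 45.4 in ML arrays. The AL and MaSC arrays overlapped, as did AL and LP, and no Ppara difference was called without the filter (lowest adjusted p = 0.0643, for AL against ML).

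Nr1h3, which encodes the oxysterol sensor liver X receptor alpha, was highest in ML apart from 1 ALP array. It read 100.3, 122 and 105 in AL, 129, 118 and 217 in ALP, 125, 66.9 and 71.1 in MaSC arrays, 124, 110.4 and 126 in LP arrays, and 203, 167 and 159.7 in ML arrays. Every ML array lay above every AL, MaSC and LP array, though LP against ML was not called (-0.55, adjusted p = 0.0930). That difference passed without ALP replicate 3 (adjusted p = 0.0435) or MaSC replicate 1 (adjusted p = 0.0397), in the fit on only these populations (0.0116), by the methods' t-test (0.0286), and with centred arrays (0.00771), quantile normalisation (0.00955) or array weights (0.00917). Nr1h3 was 2.09-fold lower in MaSC relative to ML (difference on the log2 scale -1.06, SE 0.25, adjusted p = 0.00370) and 1.62-fold lower in AL relative to ML (-0.69, adjusted p = 0.0369). The AL call was lost without AL replicate 1, AL replicate 3 or any one ML array (adjusted p = 0.0522 to 0.117). Nr1h3 was also higher in ALP than in MaSC (0.82, adjusted p = 0.0244), and that call was lost without ALP replicate 3 (0.55, adjusted p = 0.0834), MaSC replicate 2 (0.66, adjusted p = 0.0923) or MaSC replicate 3 (0.70, adjusted p = 0.0887). This probe set was above the array median in 4 of 15 arrays, namely every ML array and ALP replicate 3. It therefore entered testing through arrays where it was high, and its ML differences are not independent of that filter. No neighbours in the order ML, ALP, LP, AL and MaSC were called different.

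Nr2f2, also called COUP-TFII and known in mice for roles in venous endothelium and mesenchyme, was lowest in LP. It read 996, 899.8 and 1073 in AL, 821, 1022 and 3224 in ALP, 712, 939.5 and 339 in MaSC arrays, 303, 323 and 349 in LP arrays, and 946, 777 and 1535 in ML arrays. The LP arrays lay below all AL, ALP and ML arrays, and MaSC replicate 3 fell among them. Nr2f2 was 4.29-fold higher in ALP relative to LP (difference on the log2 scale 2.10, SE 0.48, adjusted p = 0.0257) and 3.04-fold higher in AL relative to LP (1.60, adjusted p = 0.0171), and 3.21-fold lower in LP relative to ML (-1.68, adjusted p = 0.0125). The ALP call was lost without ALP replicate 3 (1.497, adjusted p = 0.0511) and without any one LP array (adjusted p = 0.0634 to 0.0805). The AL call was lost without AL replicate 3 (1.54, adjusted p = 0.0509), and the LP against ML call without ML replicate 3 (-1.40, adjusted p = 0.0505). A second probe set of Nr2f2 read 169 to 183 in AL, 265 to 1100.4 in ALP, 174 to 422 in MaSC, 54.9 to 96.5 in LP and, in ML, 293 to 544, with the LP arrays below all others.

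With that second probe set Nr2f2 was also higher in MaSC than in LP (difference on the log2 scale 1.80, adjusted p = 0.0142), and AL against LP missed the threshold (1.21, adjusted p = 0.0685). In the order ALP, ML, AL, MaSC and LP no neighbours were called different for the brighter probe set. Without ALP replicate 3 the MaSC against LP difference of the brighter probe set passed (0.91, adjusted p = 0.0467), against an adjusted p of 0.153 with all arrays.

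Markers of other cell types were high together with some of these genes in 1 array, ALP replicate 3. In ALP replicate 3, Nr2f2 was 3.50 times the mean of the other ALP arrays, Pparg 2.97 times, Rarb 2.87 times and Nr1h3 1.75 times, while Rara was 1.10 times and Rarg 1.00 times that mean. The summed macrophage and leukocyte markers (13 of 14 with a probe set) were 5173 to 7542 in AL, 3860 to 75495 in ALP, 2202 to 3719 in MaSC, 2002 to 3328 in LP and, in ML, 1251 to 1301. Endothelial markers (10 of 10) summed to 1963 to 2492 in AL, 3526 to 25989 in ALP, 655 to 759 in MaSC, 1152 to 1624 in LP and, in ML, 957 to 1152. The part of either list in the values of these receptors was not tested. Fibroblast markers (13 of 14) summed to 32846 to 45965 in AL, 52815 to 114934 in ALP, 9477 to 12933 in MaSC, 40661 to 61759 in LP and, in ML, 1804 to 6387.

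**Figure D3:**
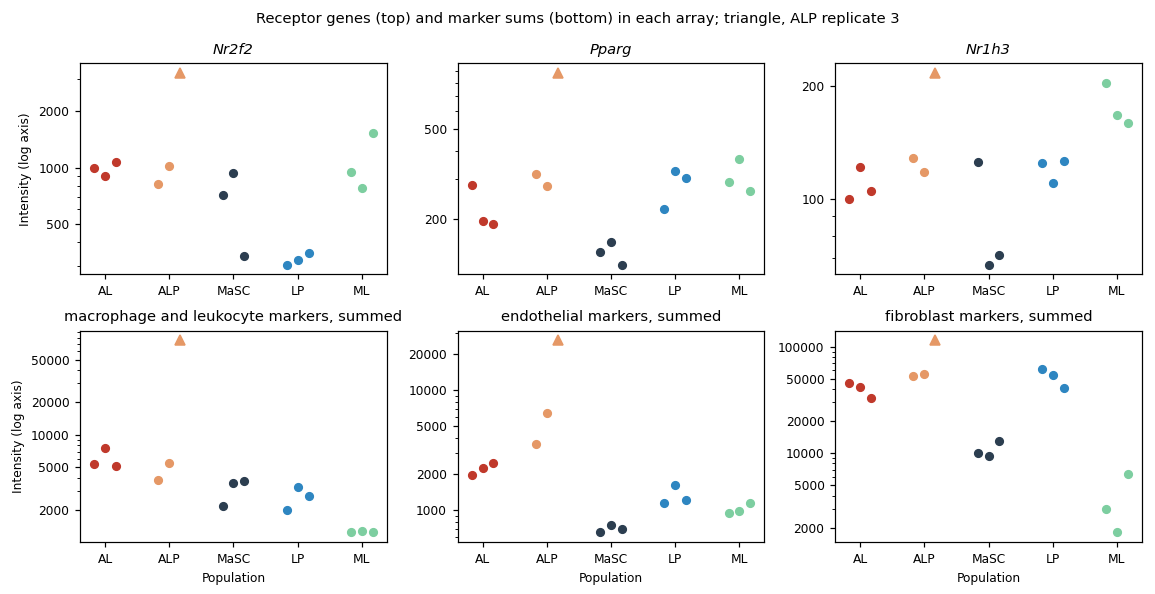
Intensity (log axis) of Nr2f2, Pparg and Nr1h3 in each array (top) and summed intensity of 3 marker lists in the same arrays (bottom), by population; the triangle is ALP replicate 3. That array is the highest in all 6 panels, with 3224 for Nr2f2 and 75495 for the macrophage and leukocyte sum.

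The count of receptor genes called stood against a wide background of differences over all genes. Between AL and LP, 6 of 8 were called, 4 higher in AL (Rxra, Rxrb, Ppard and Nr2f2) and 2 lower (Rara and Rarg), where 21.3% of all genes tested were higher and 24.2% lower. Of all genes called there 46.9% were higher in AL, and 60.1% once arrays were centred on their medians. Between AL and ML, Ppard was higher and Rara, Rarg and Nr1h3 lower in AL, against 28.7% of all genes higher and 24.8% lower. The higher share of all calls there was 53.7%, or 41.0% with centred arrays. Nr1h3 passed the brightness filter only through the ML arrays and ALP replicate 3, so its part in the AL against ML count is partly set by the filter. Between AL and MaSC, Rxra was higher and Rara lower in AL, 2 of 8 where 31.3% of all genes were higher and 28.1% lower. Rxrb was higher and Rara and Rarg lower in AL than in ALP, with 18.7% of all genes higher and 21.2% lower. Among all calls between AL and ALP, 46.9% were higher in AL, 73.9% with centred arrays and 59.9% after quantile normalisation.

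Few genes of any kind separated ALP from LP, with 3.58% higher and 3.95% lower, and Nr2f2 was the 1 receptor gene called. The higher share of those calls was 47.5%, or 28.4% with centred arrays and 37.2% after quantile normalisation. Between ALP and ML, 0 of 8 receptor genes were called by limma, against 21.1% of all genes higher and 15.6% lower. At an unadjusted p under 0.05 there was 1, Rxrb, and the count was 4 with centred arrays and 2 with quantile normalisation or array weights. All genes called there numbered 4452 with the main settings, 7851 with centred arrays, 5395 with quantile normalisation and 6173 with array weights. The higher share of all genes called in that comparison was 57.5%, against 18.7% with centred arrays and 37.1% after quantile normalisation. Pparg and Nr1h3 were higher in ALP than in MaSC, where 21.7% of all genes were higher and 16.7% lower. All calls there split to 56.6% higher, or 37.3% with centred arrays.

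Rarg and Pparg were lower in MaSC than in LP, alongside 15.8% of all genes higher and 23.1% lower. Between MaSC and ML, 4 of 8 were lower in MaSC (Rarg, Rxra, Pparg and Nr1h3) and 0 higher, with 27.1% of all genes higher and 32.4% lower. Higher genes made up 45.6% of all calls there, or 27.9% with centred arrays. The part of Nr1h3 in the MaSC against ML count is again partly set by the brightness filter, which it passed through the ML arrays and ALP replicate 3. Rxra and Nr2f2 were lower in LP than in ML, against 27.3% of all genes higher and 21.7% lower. That comparison had 55.7% of its calls higher, 30.3% with centred arrays and 45.6% after quantile normalisation.

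Each tested receptor gene was then set beside the 3 other tested genes whose log2 intensity correlated best with it over the 15 arrays, which fall into 5 populations. For Rara these were Serinc1 (Pearson's r = 0.944), Gm19710 (0.942) and Snorc (0.940), and for Rarg Trim24 (0.939), Rubcn (0.935) and Pskh1 (0.933). Rxra ran closest to Zfhx3 and Mtch1 (0.906 each) and Pisd-ps3 (0.902), and Rxrb to Exosc7 (0.936), Cyhr1 (0.928) and H2az2 (0.923). The partners of Ppard were Srrt (0.934), Prpsap1 (0.933) and Snx3 (0.901). Pparg had Ugcg (0.910), Rab5b (0.902) and Cyb5a (0.873), and Nr1h3 had Gnptg (0.941), Rnf130 (0.934) and Gstm4 (0.930). Nr2f2 had Irf8 (0.876), Gm32633 and Egfl7 (0.869 each), the last of which is on the endothelial marker list.

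Genes that supply the ligand of the retinoic acid receptors were read next. Of 8 tested genes of retinoid uptake and synthesis, 4 were lower and 0 higher in AL than in ALP, where 21.2% of all genes were lower and 18.7% higher, and the median log2 difference was -1.49, against -0.02 for all genes. The list was mixed elsewhere, with 2 higher (Rdh11 and Dhrs3) and 2 lower in AL than in LP, 1 higher and 4 lower than in ML, and 1 higher and 2 lower than in MaSC. Without ALP replicate 3, an alternative chosen after its marker sums were seen, the count was again 4 lower and 0 higher and the median -1.21. Those 4 included Rbp4, above the array median only in the ML arrays and ALP replicate 3. They also included Adh7, above it only in ALP replicates 2 and 3 and ML replicate 3. Both passed the brightness filter only through arrays where they were high. The count against ALP, and through Rbp4 that against ML, is therefore partly set by the filter. Aldh1a3, an enzyme that makes retinoic acid from retinaldehyde and also a gene of the luminal progenitor marker list, read 3637, 1924 and 4237 in AL, 10344, 10508 and 8617 in ALP, 7603, 5598 and 3661 in MaSC arrays, 11896, 12265 and 11258 in LP arrays, and 6229.5, 5669.6 and 7073 in ML arrays. It was 3.81-fold lower in AL relative to LP (difference on the log2 scale -1.93, adjusted p = 0.000277) and 3.16-fold lower than in ALP (-1.66, adjusted p = 0.000919). For Aldh1a3 every AL array except replicate 3 lay below all arrays of the other populations, and AL replicate 3 overlapped 1 MaSC array. Adh1, an alcohol dehydrogenase that can oxidise retinol, read 53.2, 55.4 and 51.0 in AL, 399, 468 and 1997 in ALP, 379, 111 and 49.7 in MaSC arrays, 569, 369 and 397 in LP arrays, and 698, 821 and 1225 in ML arrays. It was below all ALP, LP and ML arrays in AL and overlapped MaSC, and was lower in AL than in ALP (adjusted p = 0.00127) and ML (adjusted p = 0.000400). All 3 AL values were below the array median, so no fold is given. Aldh1a1, another retinaldehyde dehydrogenase, was higher in AL relative to ML (2.75, adjusted p = 0.00318), in LP relative to ML (3.76, adjusted p = 0.000585) and in MaSC than in ML (3.38, adjusted p = 0.000846).

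Of 4 tested carriers and breakdown enzymes of retinoic acid, 3 were higher in AL than in ML, 3 in ALP, 3 in MaSC and 2 in LP, with 0 lower in each. Over all genes 28.7% were higher in AL than in ML, 21.1% in ALP, 27.1% in MaSC and 27.3% in LP. Crabp1, counted in AL, was above the array median only in the AL arrays and ALP replicate 3. Cyp26b1, counted in ALP and MaSC, was above it only in MaSC replicates 1 and 2 and ALP replicate 3. Both passed the brightness filter only through arrays where they were high, so these counts are partly set by the filter. Crabp2, which carries retinoic acid to its receptors, read 8706, 9245 and 8737 in AL, 8053, 7727 and 5665 in ALP, 5081, 4703 and 5232 in MaSC arrays, 8495, 8622 and 9385 in LP arrays, and 2376, 1938 and 3187 in ML arrays. The ML arrays lay below all others. Fabp5, a fatty acid binding protein known to carry ligands to Ppard, was 4.05-fold higher in AL relative to ML (difference on the log2 scale 2.02, adjusted p = 1.18e-05) and 4.44-fold higher in LP relative to ML (2.15, adjusted p = 1.83e-05). Cyp26b1, which degrades retinoic acid, was lower in AL than in MaSC (adjusted p = 0.00534) and ALP (adjusted p = 0.0127). It read 42.8, 15.9 and 31.2 in AL, 94.4, 81.6 and 444 in ALP, and 235, 279 and 75.6 in MaSC. Every AL array was below the array median, as were ALP replicates 1 and 2 and MaSC replicate 3.

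Of 9 tested genes known as targets of retinoic acid receptors, 5 were lower and 0 higher in AL than in ALP, with a median log2 difference of -1.37, or -0.60 without ALP replicate 3, where the count was again 5 lower and 0 higher. Over all genes 21.2% were lower. Mature luminal markers (5 of 7 tested lower), endothelial markers (5 of 7 tested lower) and fibroblast markers (5 of 13 tested lower) moved the same way in that comparison, and their part in the target counts was not tested. Of the tested targets, Crabp2 and Cyp26b1 are also on the carrier and breakdown list, Dhrs3 on the uptake and synthesis list, and Foxa1, 1 of the 5 lower in AL, on the mature luminal marker list. Cyp26b1 was another of the 5. It passed the brightness filter only through MaSC replicates 1 and 2 and ALP replicate 3, so that count is partly set by the filter. In ALP against LP the receptor target list had 3 higher and 0 lower, and 0 of each without ALP replicate 3. Against LP it had 1 higher and 2 lower in AL, and against ML 2 higher and 4 lower. Meis1, a homeobox gene, read 156, 142 and 113 in AL, 337, 573 and 942 in ALP, 655, 413 and 450 in MaSC arrays, 187, 262 and 182 in LP arrays, and 1129.6, 1762 and 1181 in ML arrays. The AL arrays were below all others, and Meis1 was 9.80-fold lower in AL relative to ML (-3.29, adjusted p = 8.89e-06) and 4.18-fold lower than in ALP (-2.06, adjusted p = 0.000576). For Meis1, AL replicates 2 and 3 were below the array median, so these folds rest on a dim AL signal. Rarres2, which encodes chemerin, was 3.58-fold lower in AL relative to LP (-1.84, adjusted p = 0.00541) and 18.6-fold higher in LP relative to ML (4.22, adjusted p = 2.76e-05). All 13 tested fibroblast markers were also higher in LP than in ML, with a median log2 difference of 5.62. Their part in the Rarres2 difference was not tested.

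**Figure D4:**
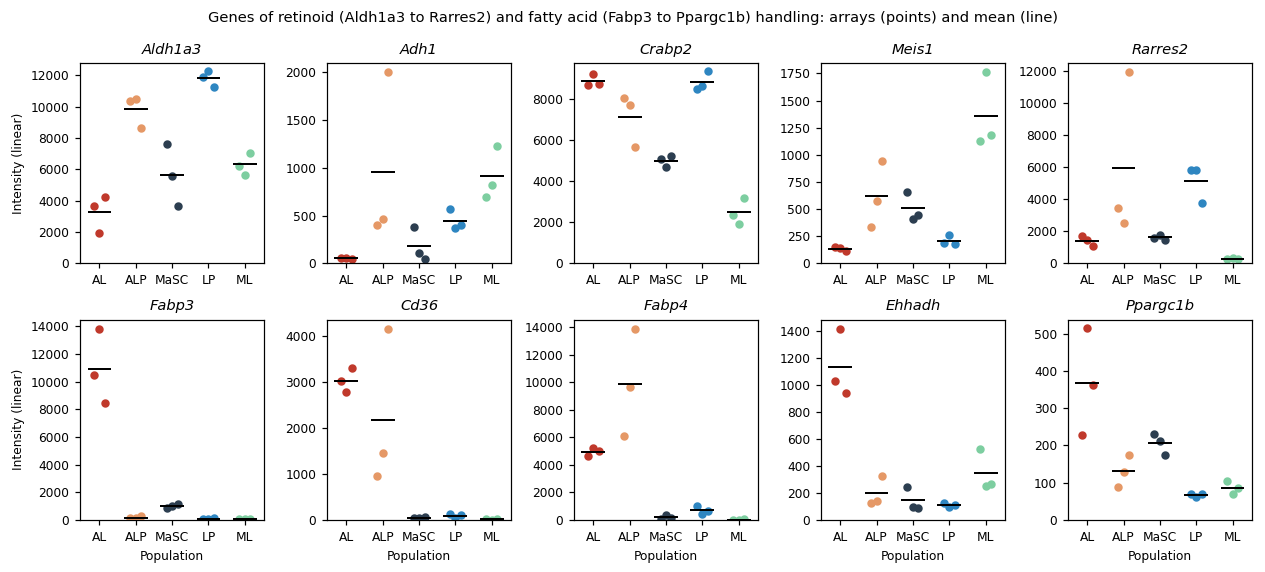
Intensity (linear scale, from 0) of 10 genes of retinoid and fatty acid handling in each of the 15 arrays, by population; points are arrays and lines are population means. Fabp3 lies between 8467 and 13791 in AL and at or below 1143 elsewhere, and the 3 AL arrays of Meis1 lie between 113 and 156.

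Of 13 tested PPAR targets in fatty acid oxidation, 7 were higher and 1 lower in AL than in LP, 6 higher and 2 lower than in ML, 8 higher and 0 lower than in MaSC, and 5 higher and 0 lower than in ALP, or 6 and 0 without ALP replicate 3. The shares of all genes higher in AL were 21.3% against LP, 28.7% against ML, 31.3% against MaSC and 18.7% against ALP. The median log2 differences were 0.58 against LP, 0.62 against ML, 0.57 against MaSC and 0.47 against ALP, with all-gene medians of -0.03, 0.03, 0.05 and -0.02. Ehhadh, an enzyme of peroxisomal fatty acid oxidation, read 1034, 1420 and 944 in AL, 125, 140.2 and 327 in ALP, 246, 99.0 and 90.5 in MaSC arrays, 126, 97.6 and 111 in LP arrays, and 523, 256 and 263 in ML arrays. It was higher in AL than in LP (adjusted p = 0.000126), where every array was below its median, and 6.23-fold above ALP (2.64, adjusted p = 0.000723), where 1 array was above it. Acot1, an acyl-CoA thioesterase, was 5.34-fold higher in AL relative to LP (2.42, adjusted p = 0.000312). Pdk4, a kinase that limits glucose oxidation, was 1.98-fold higher in AL relative to ML (0.99, adjusted p = 0.000498).

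For lipid storage and uptake, 7 of 11 tested genes were higher and 1 lower in AL than in ML, 7 higher and 2 lower than in MaSC, 3 higher and 2 lower than in LP, and 2 higher and 2 lower than in ALP, or 1 and 2 without ALP replicate 3. Over all genes 28.7% were higher in AL than in ML and 31.3% than in MaSC, and the counts against LP and ALP were close to the 21.3% and 18.7% of all genes higher there. Fabp3, which carries fatty acids in muscle and mammary cells, read 10485, 13791 and 8467 in AL, 115, 124 and 278 in ALP, 847, 995 and 1143 in MaSC arrays, 84.0, 79.1 and 151 in LP arrays, and 56.0, 66.5 and 70.4 in ML arrays. It was higher in AL than in LP (adjusted p = 3.38e-07), and all LP and ML arrays were below the array median. Cd36, a fatty acid transporter, read 3018, 2777 and 3290.5 in AL, 951, 1444 and 4144 in ALP, 51.7, 32.6 and 63.3 in MaSC arrays, 129, 50.03 and 109 in LP arrays, and 15.1, 6.73 and 29.2 in ML arrays. It was above the array median only in the AL and ALP arrays, through which it passed the brightness filter. Its part in the counts higher in AL than in LP, ML and MaSC is therefore partly set by the filter. Fabp4, a fatty acid carrier of fat cells and other cells, read 4633, 5226 and 5018 in AL, 6074.5, 9633 and 13864 in ALP, and 29.4, 24.8 and 49.6 in ML. It was higher in AL (adjusted p = 5.23e-07) and ALP (adjusted p = 6.14e-07) than in ML, where it was below the array median. Fabp4 is also on the adipocyte marker list, whose sum (7 of 10 with a probe set) was 5531 to 6277 in AL, 6881 to 15371 in ALP, 836 to 1051 in MaSC, 944 to 1641 in LP and, in ML, 1135 to 1246. In AL and ALP most of that sum was Fabp4 itself, so there it restates the Fabp4 values. Adipoq, a defining fat cell gene, read 37.9 to 49.3 in AL, 68.2, 43.9 and 308 in ALP, and 30.8 to 45.2 in LP.

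Of 11 tested liver X receptor targets, a list that includes Nr1h3 itself, 3 were higher and 0 lower in AL than in LP, 4 higher and 3 lower than in ML, 4 and 4 against MaSC, and 2 and 2 against ALP. The higher counts against LP and ML stand beside 21.3% and 28.7% of all genes. Nr1h3, 1 of the 3 lower than in ML, passed the brightness filter only through the ML arrays and ALP replicate 3. The 3 higher than in LP were lipid synthesis genes: Fasn, the fatty acid synthase (2.41-fold, adjusted p = 4.03e-05), Scd2, a fatty acid desaturase (3.25-fold, adjusted p = 0.000774) and Srebf1, a regulator of lipid synthesis genes (2.16-fold, adjusted p = 0.00102). Abcg1, which exports cholesterol, read 514, 432 and 748 in AL, 1644, 1946 and 3127 in ALP, 2070.02, 2424 and 1096 in MaSC arrays, 810.5, 1569 and 615 in LP arrays, and 3647, 3601 and 3248 in ML arrays. The AL arrays were below all ALP, MaSC and ML arrays and overlapped LP, and Abcg1 was 6.36-fold lower in AL relative to ML (-2.67, adjusted p = 0.000124). Apoe, a cholesterol carrier, was 42.9-fold higher in MaSC relative to ML (5.42, adjusted p = 4.67e-06).

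Among 15 tested coregulators 3 were higher and 3 lower in AL than in LP, with 21.3% of all genes higher and 24.2% lower, and 7 higher and 3 lower in AL than in MaSC, with 31.3% and 28.1% of all genes. Ppargc1b, a coactivator known to drive mitochondrial and lipid genes, read 228, 515 and 363 in AL and was higher there than in LP (adjusted p = 7.26e-05), ML (adjusted p = 0.000125) and ALP (adjusted p = 0.00212), and in these 3 populations every array was below its median. Its relative Ppargc1a was higher in AL than in MaSC (adjusted p = 0.000394), where all 3 arrays were below the median. Ncoa1, a steroid receptor coactivator, was 1.52-fold lower in AL relative to LP (-0.61, adjusted p = 0.000266). Of 6 tested related receptors, 3 were lower and 0 higher in AL than in LP, 3 lower and 2 higher (Rora and Vdr) than in ML, and 2 lower and 1 higher than in MaSC, with 24.2%, 24.8% and 28.1% of all genes lower. Vdr, the vitamin D receptor gene, was lower in AL than in LP (-0.46, adjusted p = 0.00749) and above ML in AL (0.45, adjusted p = 0.00702). Another of the lower genes was Thra, a thyroid hormone receptor, which was 2.24-fold lower in AL relative to ML (-1.16, adjusted p = 3.72e-05) and 2.15-fold lower than in ALP (-1.10, adjusted p = 0.000127).

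**Figure D5:**
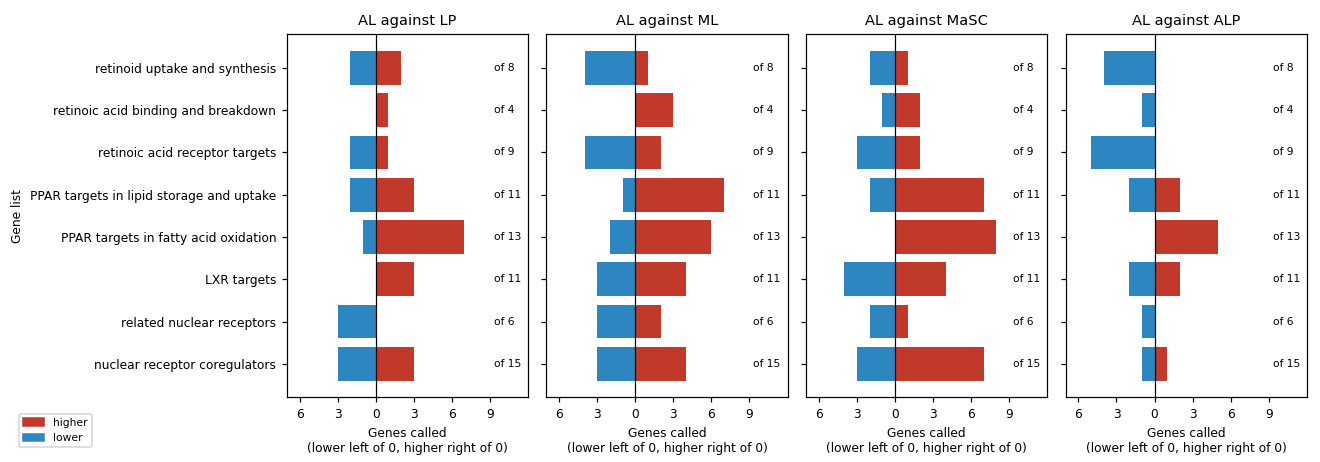
Number of genes called higher (right of 0) or lower (left of 0) in AL against LP, ML, MaSC and ALP, for 8 gene lists, with the number tested at the right of each row. Fatty acid oxidation has 5 to 8 of 13 genes higher in AL in the 4 comparisons, and retinoic acid receptor targets have 5 of 9 lower in AL than in ALP. Of those 5, Cyp26b1 passed the brightness filter only through arrays where it was high.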

How the data were processed

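The authors hybridised amplified, biotin-labelled RNA to 15 Affymetrix arrays and normalised the arrays with dChip. The deposited table holds 1 linear intensity per probe set and array. The sources used here give neither the dChip version and settings nor scan dates, so no array batch was examined. Of 45101 probe sets, 34945 carried exactly 1 gene symbol (932 several, 9160 none, 64 controls), taken from GEO's platform annotation and updated through Entrez numbers to RefSeq for 34741. Intensities under 1 were set to 1 before log2. Testing was limited to probe sets above the median of their array in at least 3 of 15 arrays, and the brightest per gene was used, which left 12143 genes.

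Differences came from limma 3.58.1 (R 4.3.3; lmFit, contrasts.fit and eBayes) on the 15 arrays together, with a separate mean for each population. Tests were two-sided, with Benjamini-Hochberg adjustment over genes within each comparison. The fit was tested on simulated data. Folds are antilogs of log2 differences. SE refers to the log2 scale. Groups came from the sample titles and the number of arrays limits the precision. No 2 arrays of a population were identical.

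All 10 receptor genes were named, with the 3 best correlated genes each and at most 4 called genes per list and comparison by moderated t. The receptor genes and the gene lists were chosen with earlier results of these data known. Alternatives were 16 added to each intensity, no filter, median centring, quantile normalisation, other probe set rules, fits on only the 2 populations compared, a mean-variance trend, array weights, a replicate block, the methods' t-test and leaving out each array.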

Additional observations from a re-analysis of the deposited data

How the results depend on the processing

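No called difference of a receptor gene reversed under any alternative run. The count of receptor genes called in AL against LP (6) stayed at 4 to 6 when 1 array was left out, and that of the F test (8) at 6 to 8. Leaving out 1 array gave 2 to 4 in AL against ML, 2 to 3 in AL against MaSC, 1 to 4 in AL against ALP, 0 to 1 in ALP against LP, 0 to 1 in ALP against ML, 1 to 3 in ALP against MaSC, 0 to 3 in MaSC against LP, 1 to 4 in MaSC against ML and 1 to 4 in LP against ML. With array weights the counts were 4 for AL against MaSC, 6 for AL against ALP, 2 for ALP against LP, 2 for ALP against ML, 4 for ALP against MaSC, 4 for MaSC against LP and 4 for LP against ML. Of all 12143 genes tested, array weights called 8244, 7380, 4225, 6173, 6386, 5891 and 7405 in the same order. The main settings called 7212, 4849, 915, 4452, 4665, 4727 and 5952. With arrays centred on their medians, ALP against ML had 4, LP against ML 4 and MaSC against LP 1, beside 7851, 6176 and 4518 of all genes. Quantile normalisation gave 2 in ALP against ML and 4 in LP against ML, beside 5395 and 5959 of all genes. Fits on only the 2 populations compared gave 0 in ALP against LP, 0 in ALP against MaSC, 1 in MaSC against LP, 2 in MaSC against ML and 4 in LP against ML, and the methods' t-test gave 0, 0, 1 and 1 in the first 4 of these. Of all genes, those fits called 4, 1349, 4103, 6285 and 6599 in the same order, and the t-test 0, 168, 3209 and 5111. MaSC against LP had 1 with 16 added and 0 without the filter, where more genes were tested, beside 4749 and 4803 of all genes. The causes were not tested.

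MaSC, LP and ML came from 3 shared suspensions, but the labels do not say that replicate numbers follow them, and 1 of 9 same-numbered pairs correlated above 0.1 in their deviations (r = -0.0114 to 0.173). With the replicate number of these populations as a replicate block, MaSC against LP had 0 receptor genes called, beside 4528 of all genes. The adjusted p there was 0.0648 for Rarg and 0.0654 for Pparg, and Rxra in MaSC against ML had 0.0540. The block left the counts of the other comparisons within 1.5 times. Centring shifted the median log2 difference of all genes furthest in ALP against ML (-0.41). Rara in AL, Pparg in MaSC, Meis1 in AL replicates 2 and 3, most Nr1h3 values and, in some populations, Rbp4, Adh1, Adh7, Crabp1, Cyp26b1, Fabp3, Fabp4, Cd36, Ehhadh, Ppargc1a and Ppargc1b were below the array median, where intensity over background limits what a difference can show.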
